A study of Mus musculus with 16 samples.

Results

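The effect of an HDAC6 inhibitor on epididymal fat was set against the effect of deleting Hdac6 in fat cells, gene by gene. All 16 of the 16 libraries of the series entered. For each gene the mean log2(FPKM + 1) of vehicle was taken from that of the inhibitor (the drug arm), and the mean of the controls from that of the knockout (the knockout arm). The second difference was then taken from the first. Genes with a mean FPKM (fragments per length of transcript and depth of library) of at least 1 over the 16 columns entered, which were 13271 of 54532. No measured difference chose the genes or libraries.

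All 4 groups held 4 libraries of epididymal white adipose tissue from male C57BL/6 mice kept obese on a high-fat diet for 20 weeks. Veh was given vehicle and TubA was given tubastatin A-HCl, both labelled as 25 weeks old. AdKO is labelled as an adipose tissue specific Hdac6 knockout and AdCre as adiponectin-Cre controls, both 28 weeks old and both labelled with vehicle as treatment. The labels give every Veh and TubA animal the genotype of an HDAC6 global knockout, whereas the series' design line names no knockout and an age of about 28 weeks. This conflict was not resolved, so what the drug acted on in the drug arm is uncertain. Adiponectin-Cre is expressed in mature fat cells, so vessel, immune and stromal cells of the AdKO tissue should keep the gene. Drug and knockout also differ in cohort and labelled age, which cannot be told apart from the difference between their effects.

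HDAC6 is a mainly cytoplasmic deacetylase that removes acetyl groups from alpha-tubulin, HSP90 and cortactin. It also binds ubiquitin and carries ubiquitinated proteins to the aggresome, beside the proteasome the other main route for clearing misfolded proteins. Tubastatin A blocks its catalytic site and leaves the protein in place, while a deletion removes enzyme and ubiquitin binding together.

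Fat cell markers checked the tissue: Adipoq was at 527 to 1227 FPKM and Plin1 at 124 to 317 in the 16 libraries. Some libraries stood apart. The mean of the 5 fat cell markers, each centred over the 16 libraries, was 0.38 in Veh replicate 2 and from -0.58 to -0.05 in the other 7 libraries of its arm. In AdKO it was -0.41 and -0.63 in replicates 1 and 4 and 0.49 and 0.52 in replicates 2 and 3, against 0.34 to 0.66 in AdCre. Markers of epididymal epithelium also differed between libraries. Adam7 was at 1.91 and 5.57 FPKM in AdCre replicates 2 and 3, at 0.615 and 0.358 in Veh replicates 1 and 3 and at 0 in the other libraries. The summed level of 14 epididymal markers was 34.9 and 43.3 FPKM in AdCre replicates 2 and 3, 37.2 in Veh replicate 1, 36.1 and 31.4 in AdKO replicates 2 and 4, and 6.71 to 22.6 in the others. Of the 14, 8 were below 1 FPKM in all libraries, so the sum rests on few genes. In AdKO replicates 2 and 4 Adam7 and Gpx5, another such marker, were at 0. Epcam, a general epithelial marker, was at 0.332 and 0.481 FPKM there and at 22.8 in AdCre replicate 3. Whether the sum reflects epididymal tissue in those AdKO libraries was not tested. The effects with the libraries named in this paragraph left out are given where they moved a result. In such bulk tissue, fewer cells of a type and less RNA per cell cannot be told apart.

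Hdac6 itself (ENSMUSG00000031161, chromosome X, 7930120 to 7947889 in GRCm38) stood at 1.78, 1.41, 1.66 and 1.48 FPKM in the Veh libraries, 1.7, 1.52, 1.44 and 1.59 with TubA, 4.15, 4.15, 4.74 and 3.64 in AdCre and 4.11, 2.66, 3.44 and 3.52 in AdKO. The libraries of both drug arm groups, labelled as global knockouts, all lay below those of both knockout arm groups. Veh and TubA overlapped, as did AdCre and AdKO, where AdKO replicate 1 lay among the controls. Whether the low level in the drug arm comes from genotype or cohort cannot be told apart. The difference in mean log2(FPKM + 1) was -0.01 in the drug arm and -0.23 in the knockout arm, with two-sided exact permutation p-values of 0.857 and 0.0571 and a smallest possible p of 0.0286. The difference of the effects was 0.22 (exact permutation p = 0.149 over 4900 relabelings within the arms). A level over the whole gene says nothing of a missing exon or a blocked enzyme.

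Over all genes, both effects pointed the same way slightly more often than not. They had equal signs in 57.6% of the 13271 genes and opposite signs in 42.3%, with 27.0% higher in both arms, 30.7% lower in both, 18.4% higher with TubA and lower in AdKO, and 23.9% the reverse. Across genes, which are not independent replicates, the effects had a Pearson r of 0.14 and a Spearman rho of 0.22. Signs were equal in 66.7% of the 1009 genes with both effects at least 0.25 in size, 56.2% of the 217 at 0.5 and 59.1% of the 22 at 1.0. With 1 library left out the share over all genes ran from 50.5%, without Veh replicate 2, to 59.9%.

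Limma-trend called 0 genes in the drug arm (0.0% of those tested) and 0 in the knockout arm (0.0%) at an adjusted p of 0.05, with 1597 (12%) and 1452 (10.9%) at an unadjusted p under 0.05. In the drug arm 788 of these (5.94%) were higher and 809 (6.1%) lower, and in the knockout arm 635 (4.78%) and 817 (6.16%). It also called 0 genes (0.0%) for the difference of the effects, with 1198 (9.03%) at an unadjusted p under 0.05. The median standard error was 0.15 for that difference and 0.08 for the average of both effects. The average of both effects was tested as well, and 26 genes passed (0.196%), 21 higher (0.158%) and 5 lower (0.0377%), beside 2182 (16.4%) at an unadjusted p under 0.05. The limma adjusted p of these 26 ran from 0.0323 to 0.0494. The same test called 41 genes on TPM, from 0 to 76 with 1 library left out, and 0 without AdCre replicates 2 and 3 together.

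Genes were also sorted by arm. In 207 genes the unadjusted p was under 0.05 in both arms, which were 13.0% of the drug arm's list and 14.3% of the knockout arm's. Of these, 157 (1.18% of those tested) had effects of equal sign, 98 higher (0.738%) and 59 lower (0.445%), and 50 (0.377%) of opposite sign. The 50 were 19 higher with TubA and lower in AdKO (0.143%) and 31 the reverse (0.234%). The libraries of the groups did not overlap in either arm for 56 genes. Of these 39 (0.294%) had effects of equal sign, 28 higher (0.211%) and 11 lower (0.0829%). The other 17 (0.128%) had opposite signs, 9 higher with TubA and lower in AdKO (0.0678%) and 8 the reverse (0.0603%). In single arms 7.15% of genes were without overlap with TubA, 3.53% higher and 3.62% lower, and 6.48% in AdKO, 2.78% higher and 3.7% lower.

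**Figure D1:**
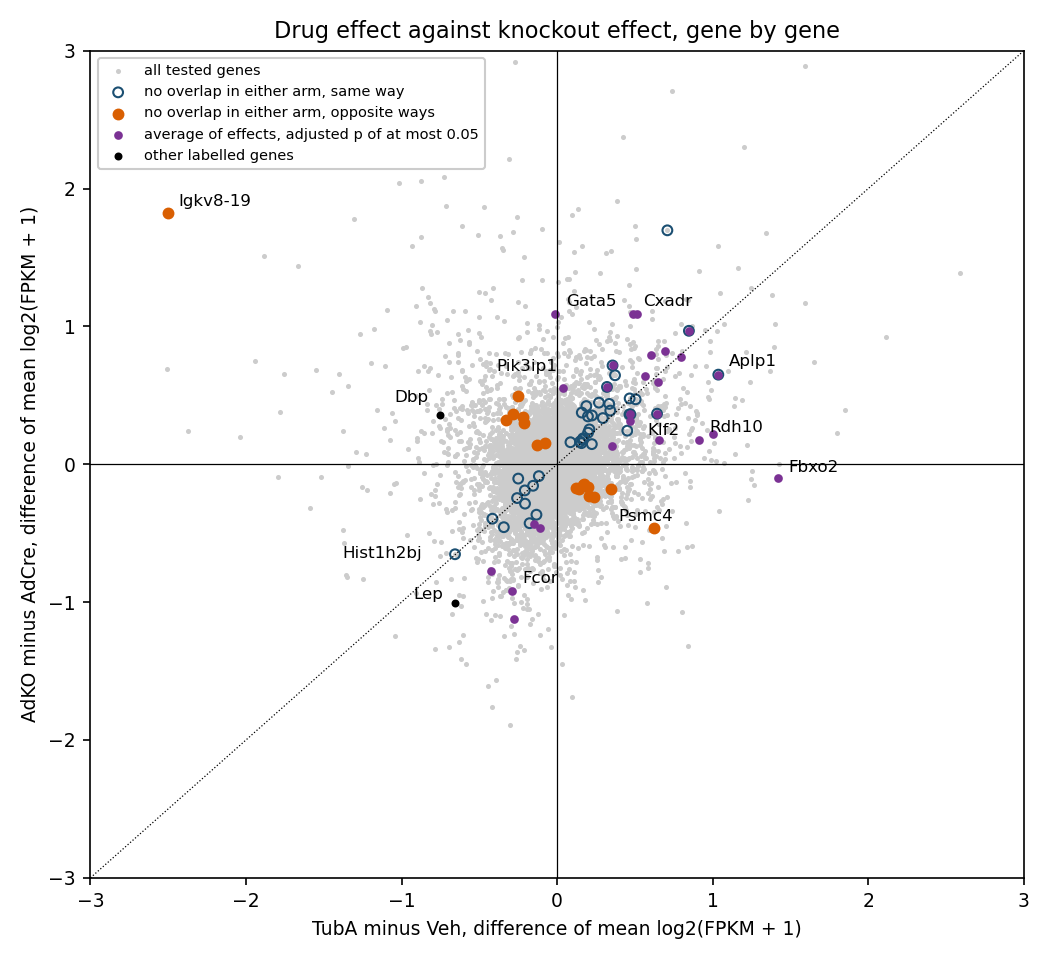
Each point is 1 tested gene, with the TubA minus Veh difference on the horizontal axis and the AdKO minus AdCre difference on the vertical axis, both in mean log2(FPKM + 1). Open circles and orange points mark the 39 same-way and 17 opposite-way genes without overlap in either arm, purple points the 26 genes passing on the average, and 1 gene lies outside the axes. Points on the dotted diagonal, such as Hist1h2bj, have equal effects, and Gata5 and Fbxo2 lie near an axis, with an effect near 0 in 1 arm.

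Genes that passed as higher on the average of both effects included Rdh10, Aldh1a2, Aplp1 and Klf2. Rdh10, a retinol dehydrogenase (Rdh10, chromosome 1, 16105774 to 16133734 in GRCm38), stood at 3.68, 3.17, 4.1 and 3.23 FPKM in the Veh libraries, 7.85, 8.95, 5.91 and 7.63 with TubA, 4.05, 4.13, 3.66 and 3.56 in AdCre and 4.6, 4.04, 3.99 and 5.34 in AdKO. All TubA libraries lay above all Veh libraries, while AdKO and AdCre overlapped. Its effects were 0.91 (SE 0.12) and 0.17 (SE 0.09), and the average of 0.54 (SE 0.08) had a limma adjusted p of 0.0323 and the smallest unadjusted p of all genes, 4.97e-06. Aldh1a2, a retinaldehyde dehydrogenase, stood at 11.7, 7.69, 13.7 and 9.34 FPKM in the Veh libraries, 12.9, 18.1, 18 and 14.9 with TubA, 18.9, 16.5, 12.9 and 13.8 in AdCre and 22.1, 26.9, 23.2 and 26 in AdKO. The AdKO libraries lay above all AdCre libraries, and TubA replicate 1 lay within the Veh range. Its effects were 0.57 (SE 0.17) and 0.64 (SE 0.12) (average 0.60 (SE 0.11), limma adjusted p = 0.0494), and it was named after its values were seen.

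Aplp1, an amyloid precursor-like membrane protein, stood at 3.13, 1.79, 1.92 and 1.96 FPKM in the Veh libraries, 3.71, 6.97, 5.59 and 6.14 with TubA, 1.92, 1.42, 1.26 and 1.69 in AdCre and 2.36, 2.26, 3.61 and 4.16 in AdKO. Both arms were without overlap, with Veh replicate 1 nearest to the TubA libraries. Its effects were 1.04 (SE 0.18) and 0.65 (SE 0.17) (average 0.84 (SE 0.13), limma adjusted p = 0.0323). Klf2, a transcription factor of quiescent endothelium, T cells and preadipocytes, stood at 46.2, 38.3, 44.5 and 47.6 FPKM in the Veh libraries, 57.5, 69.7, 59.2 and 59.9 with TubA, 34.6, 36.9, 34.6 and 35.5 in AdCre and 46.4, 49.6, 37.5 and 50.9 in AdKO. It too was without overlap in both arms, most narrowly at AdKO replicate 3. Its effects were 0.47 (SE 0.09) and 0.36 (SE 0.10) (average 0.42 (SE 0.07), limma adjusted p = 0.0323). Mfsd7a, a member of the major facilitator transporter family, stood at 6.81, 6.48, 7.48 and 5.95 FPKM in the Veh libraries, 9.11, 9.14, 8.3 and 7.79 with TubA, 7.64, 7.0, 6.31 and 5.4 in AdCre and 9.83, 8.95, 10.2 and 11.7 in AdKO. These groups did not overlap either, and its effects were 0.32 (SE 0.08) and 0.56 (SE 0.11).

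Tmem35a, a chaperone of nicotinic acetylcholine receptors, passed on the average at 0.50 (SE 0.09) (limma adjusted p = 0.0407). Its group means were low, 0.83 FPKM in Veh, 1.87 with TubA, 0.62 in AdCre and 1.09 in AdKO. Tmem35a met the filter of a mean of 1 FPKM only through the TubA libraries. P3h4, an endoplasmic reticulum protein of the collagen-modifying prolyl 3-hydroxylase complex, passed at 0.54 (SE 0.10) (limma adjusted p = 0.0442), and its lowest TubA and highest Veh libraries were 9.62 and 9.61 FPKM. Nfe2l3, a transcription factor of the NRF family, had nearly equal effects of 0.65 and 0.60. Of the 26 genes, 16 had an unadjusted p under 0.05 in both arms and 24 had effects of equal sign. Over all tested genes, 1.18% had such p-values with equal signs, and 57.6% had equal signs. Passing on the average favours both traits, so these counts are no separate support.

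Some genes passed on the average with nearly all of the effect in 1 arm. Gata5, a transcription factor, stood at 1.86, 1.33, 2.12 and 1.48 FPKM in the Veh libraries, 1.53, 1.94, 1.67 and 1.53 with TubA, 0.654, 0.709, 0.328 and 0.82 in AdCre and 1.79, 2.51, 2.67 and 2.9 in AdKO. All TubA libraries lay within the Veh range, at an effect of -0.01 (SE 0.11), while AdKO was above AdCre at 1.09 (SE 0.14). Zc3h12a, an RNase that degrades inflammatory transcripts, had effects of 0.04 and 0.55. Fbxo2, a ubiquitin ligase subunit that binds glycoproteins, was the reverse case with 1.42 and -0.10. It stood at 0.27 to 0.67 FPKM in Veh, 1.57 to 3.39 with TubA, 0.30 to 0.66 in AdCre and 0.12 to 0.60 in AdKO. Fbxo2 thus met the filter of a mean of 1 FPKM only through the TubA libraries, where it was high. Ndrg4 leaned to the drug arm at 1.0 and 0.22.

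Cxadr, an adhesion protein of epithelia and mesothelium, and Prr15 had larger effects in the knockout arm (1.09 and 1.09) than in the drug arm (0.49 and 0.51), and both passed on the average. Markers of mesothelium, the cell layer that covers the fat pad, also had the larger median in the knockout arm. Of the 10 tested of 12 listed, the median was 0.16 in the drug arm and 0.81 in the knockout arm, and 4 were higher in both arms, where 27.0% of all genes were. The summed level of the 12 genes ran from 77.6 to 150 FPKM in Veh, 110 to 164 in TubA, 60.6 to 168 in AdCre and 98.8 to 202 in AdKO. None of the 12 was at 0 in all libraries. The part of mesothelial cells in these results was not tested.

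Further genes were higher in both arms without overlap and without passing. They were Cpt1c, a neuronal relative of carnitine palmitoyltransferase, Amigo2 and Il1rl2, the receptor of interleukin 36, as well as Lpcat4, Smox, a spermine oxidase, Cdr2l and Nfkbiz, an inflammatory NF-kappaB cofactor. The average effects of these 7 ran from 0.27 (Cpt1c) to 0.51 (Nfkbiz), with limma adjusted p-values of 0.0656 to 0.0829.

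Genes that passed as lower on the average included Cox7a2, Romo1 and Fcor. Cox7a2, a subunit of cytochrome c oxidase, stood at 55.3, 64.4, 63.1 and 62.9 FPKM in the Veh libraries, 60.2, 53.7, 54.8 and 58.2 with TubA, 75.8, 77.9, 76.7 and 75.5 in AdCre and 55.9, 59.1, 57.6 and 48.9 in AdKO. AdKO lay below all AdCre libraries, while TubA and Veh overlapped through Veh replicate 1. Its effects were -0.11 (SE 0.07) and -0.46 (SE 0.08) (average -0.29 (SE 0.05), limma adjusted p = 0.0330). Romo1, an inner membrane protein that modulates reactive oxygen species, had an average of -0.29 (SE 0.05) (limma adjusted p = 0.0458). Fcor, a corepressor of FOXO1 in fat cells, stood at 20, 23.9, 25 and 25.7 FPKM in the Veh libraries, 22.6, 16, 19.3 and 19 with TubA, 36.9, 54.1, 38.9 and 41 in AdCre and 19.1, 23.9, 28.6 and 17.4 in AdKO. It was lower in all AdKO than in all AdCre libraries and overlapped in the drug arm (average -0.60 (SE 0.11), limma adjusted p = 0.0449). Cox7a2 and Romo1 passed under 1 of 3 other scalings, unlike Rdh10, Aplp1 and Klf2, which passed under all 3.

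In 11 genes all libraries were lower in both arms, and none of them passed. Hist1h2bj, a histone H2B gene, came closest with an adjusted p of 0.0548 by limma, just outside the threshold. It stood at 4.62, 5.09, 4.44 and 4.59 FPKM in the Veh libraries, 3.14, 2.59, 2.59 and 2.16 with TubA, 6.74, 6.02, 8.62 and 6.51 in AdCre and 2.6, 5.64, 5.6 and 3.07 in AdKO. Both effects were nearly equal, -0.66 (SE 0.09) and -0.65 (SE 0.22), and reads of near-identical histone copies may have been shared. Ppp1r15a, the phosphatase subunit that ends the integrated stress response, stood at 7.49, 7.17, 7.46 and 7.14 FPKM in the Veh libraries, 5.4, 6.13, 5.89 and 6.45 with TubA, 7.55, 6.99, 6.85 and 6.42 in AdCre and 5.71, 6.21, 4.87 and 6.11 in AdKO. Its effects were -0.26 (SE 0.06) and -0.25 (SE 0.08), also nearly equal. Hdac9, a class IIa deacetylase, was at 1.38, 1.43, 1.31 and 1.28 FPKM in the Veh libraries, 1.17, 1.1, 1.09 and 1.21 with TubA, 2.0, 1.94, 2.28 and 2.12 in AdCre and 1.12, 1.85, 1.68 and 1.03 in AdKO. All 4 libraries were lower in each arm, by -0.13 and -0.37 (limma adjusted p of the average 0.134).

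Sdhb, the iron-sulfur subunit of succinate dehydrogenase, had effects of -0.15 and -0.16. Kcnq1, a potassium channel, was at -0.34 and -0.46, and Atp6v0a1, a subunit of the proton pump of lysosomes, at -0.42 and -0.39. Msmo1, an enzyme of sterol demethylation, was at -0.18 and -0.43, and Mid1ip1, which promotes fatty acid synthesis by acetyl-CoA carboxylase, at -0.21 and -0.29. Chmp2a, Map7d1 and Abcf3 completed the 11, with averages of -0.18, -0.20 and -0.10. The adjusted p of the 11 averages ran from 0.0548 to 0.164 by limma.

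Lep, the gene of the satiety hormone leptin, stood at 371, 798, 459 and 582 FPKM in the Veh libraries, 352, 318, 265 and 430.3 with TubA, 855, 935, 1035 and 979 in AdCre and 346, 737, 673 and 288 in AdKO. In the knockout arm the groups did not overlap, and in the drug arm Veh replicate 1 lay within the TubA range. The effects were -0.66 (SE 0.24) and -1.01 (SE 0.31), the average -0.83 (SE 0.21) (limma adjusted p = 0.108). Within the knockout arm Lep was lowest in AdKO replicates 1 and 4, where the fat cell markers were lowest, and within the drug arm it was highest in Veh replicate 2.

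**Figure D2:**
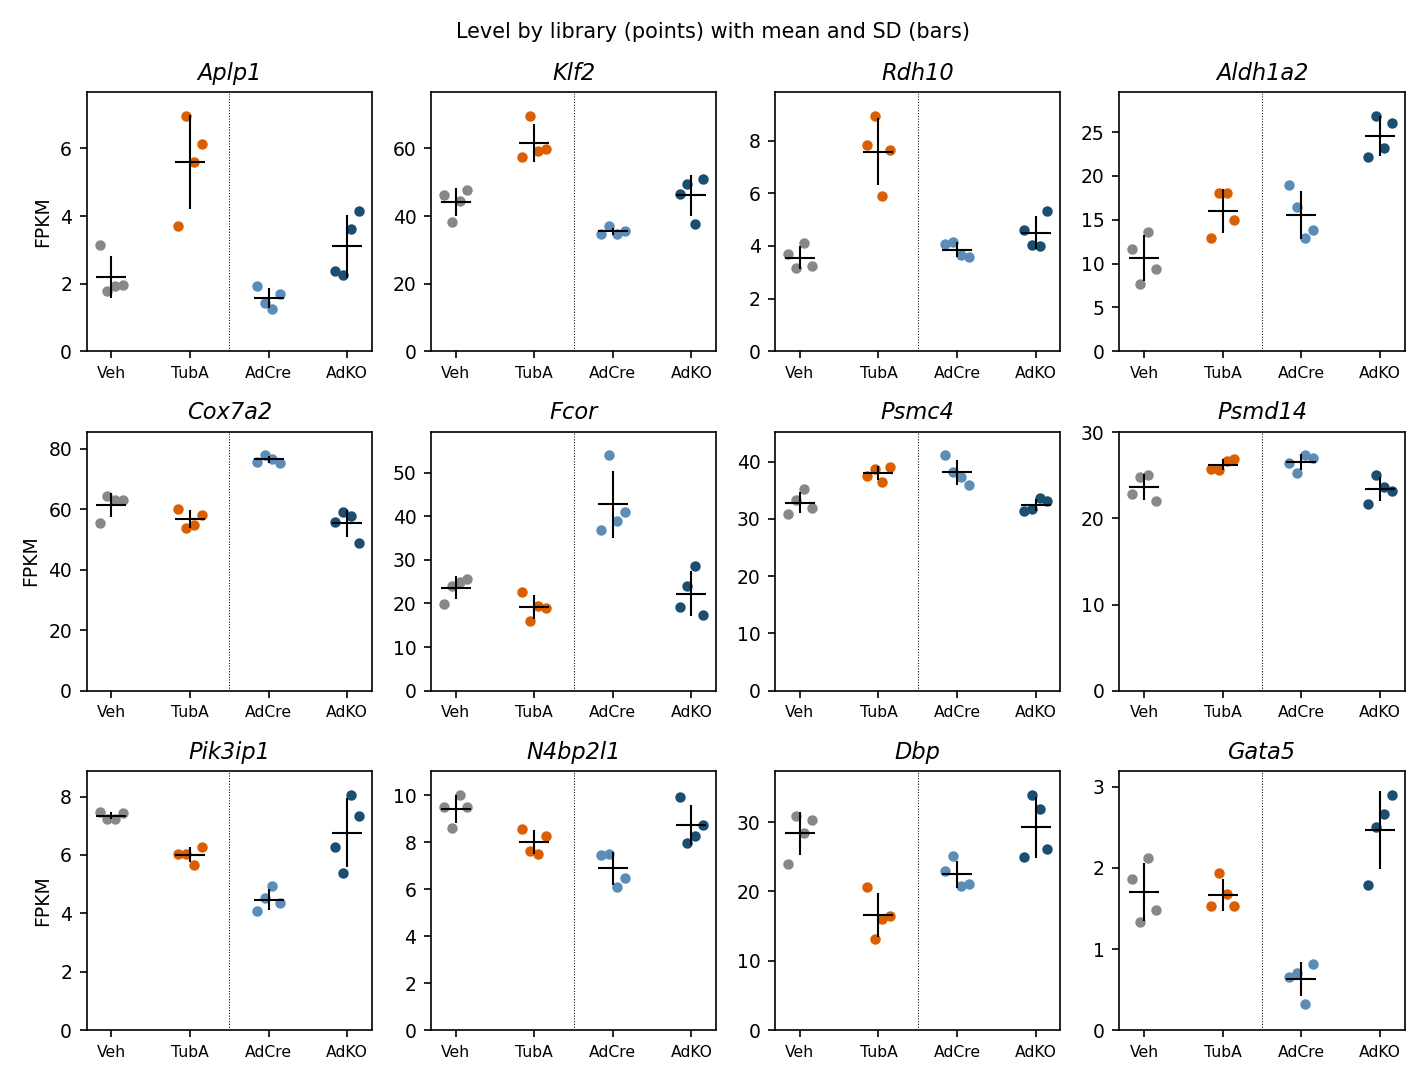
FPKM of 12 genes in each library (points) with the group mean and SD (bars, 4 libraries a group). Aplp1 and Klf2 were higher in both arms, Psmc4 and Psmd14 higher with TubA and lower in AdKO, Pik3ip1 and N4bp2l1 the reverse, and for Gata5 the groups are apart in the knockout arm and overlap in the drug arm.

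Most genes of the proteasome, the protease that degrades ubiquitinated proteins, had effects of opposite sign. Of its 22 listed and tested subunit genes, 19 were higher with TubA and lower in AdKO (18.4% of all tested genes were). The median effect was 0.16 in the drug arm and -0.09 in the knockout arm, against -0.01 and 0.00 over all tested genes. The difference of the effects had an unadjusted p under 0.05 in 17 of the 22, each time with the drug effect the higher, against 4.46% of all genes, and 0 passed the adjusted threshold. Psmc4, an ATPase subunit of the cap that unfolds substrates, had the smallest p of the list. Its difference was 0.43 (SE 0.08), with a limma adjusted p of 0.0917.

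The promoter of Psmc4 is shown because it had the smallest p of the list. Those of Psmb5 and Psmb6 are shown because they were the listed genes that held the motif searched for. The sequences are the 250 bases before the start site, from RefSeq (GRCm38.p6), 5′ to 3′ along the gene. The motif TGACNNNGC, the core of the antioxidant response element through which the transcription factor NFE2L1 is known to raise proteasome genes, was searched on both strands and is in capitals.
Psmc4 (chr7:28050093-28050342 on the minus strand): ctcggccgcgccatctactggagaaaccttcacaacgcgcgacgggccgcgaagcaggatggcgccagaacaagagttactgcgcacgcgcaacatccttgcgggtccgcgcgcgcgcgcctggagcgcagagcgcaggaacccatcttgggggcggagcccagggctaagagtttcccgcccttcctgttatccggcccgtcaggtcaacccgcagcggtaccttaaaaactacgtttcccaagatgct
Psmb5 (chr14:54617996-54618245 on the minus strand): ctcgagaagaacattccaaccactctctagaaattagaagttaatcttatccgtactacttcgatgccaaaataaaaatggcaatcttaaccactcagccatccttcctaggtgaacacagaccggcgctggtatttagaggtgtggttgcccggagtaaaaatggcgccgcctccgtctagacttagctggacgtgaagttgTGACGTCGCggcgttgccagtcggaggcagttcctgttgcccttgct
Psmb6 (chr11:70525107-70525356 on the plus strand): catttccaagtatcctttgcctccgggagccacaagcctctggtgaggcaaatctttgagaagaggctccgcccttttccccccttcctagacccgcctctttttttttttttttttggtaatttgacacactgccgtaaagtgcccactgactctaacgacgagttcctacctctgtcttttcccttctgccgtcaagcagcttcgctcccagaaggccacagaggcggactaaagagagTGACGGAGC
Of the 22 genes 19 had a sequence, and 2 of these (10.5%), Psmb5 and Psmb6, held the motif, beside 14.1% of the 9647 tested genes with a sequence. Psmd12, a subunit outside the list, was searched as well. It held 1 match on the opposite strand, at -247 from the start site, and is not shown. A motif match is a description of these letters only.

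Psmc4 stood at 30.9, 33.2, 35.1 and 31.9 FPKM in the Veh libraries, 37.5, 38.8, 36.4 and 39.1 with TubA, 41.1, 38.1, 37.4 and 35.9 in AdCre and 31.4, 31.6, 33.6 and 33.1 in AdKO. Every TubA library lay above every Veh library, and every AdKO library below every AdCre library. The effects were 0.21 (SE 0.05) and -0.23 (SE 0.07). Psmc2, another ATPase of the same ring, stood at 18.1, 19.2, 17.8 and 17.6 FPKM in the Veh libraries, 19.9, 20.5, 21.1 and 20.8 with TubA, 20.2, 19.4, 19.6 and 19.3 in AdCre and 16.6, 18.6, 18.8 and 16.9 in AdKO, again without overlap in either arm. Psmd14, the deubiquitinase of the lid, stood at 22.8, 24.8, 25.1 and 22 FPKM in the Veh libraries, 25.7, 25.6, 26.6 and 26.9 with TubA, 26.4, 25.2, 27.3 and 27 in AdCre and 21.7, 25, 23.7 and 23.1 in AdKO. Its groups did not overlap, though AdCre replicate 2 and AdKO replicate 2 nearly met. For Psmc2 the difference of the effects was 0.31 (SE 0.07) (limma adjusted p = 0.193), and for Psmd14 0.32 (SE 0.08) (limma adjusted p = 0.212). Psmd12, a lid subunit outside the list, followed the same pattern at 0.17 and -0.15.

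Not all subunits were alike. Psmd11, a lid subunit, stood at 11, 13.1, 12.4 and 12.5 FPKM in the Veh libraries, 15.6, 17, 16.5 and 16.4 with TubA, 11.8, 13.5, 11.5 and 12.6 in AdCre and 11.6, 12.7, 11.5 and 11.8 in AdKO. It was higher in all TubA libraries, with the largest drug effect of the list (0.40 (SE 0.06)), while AdKO and AdCre overlapped (-0.05 (SE 0.07)). Psmb5, the chymotrypsin-like catalytic subunit, had the lowest knockout effect (-0.26) and a drug effect of 0.15 (SE 0.12) with overlapping groups. Psmb6, the caspase-like catalytic subunit, was lower in both arms (-0.05 and -0.11). Psma4 and Psmb1, the other two exceptions, had knockout effects of 0.01 and 0.00. By gene, 13 of 22 were without overlap and higher in the drug arm (3.53% of all genes were). In the knockout arm 6 were without overlap and lower (3.7% of all genes were).

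**Figure D3:**
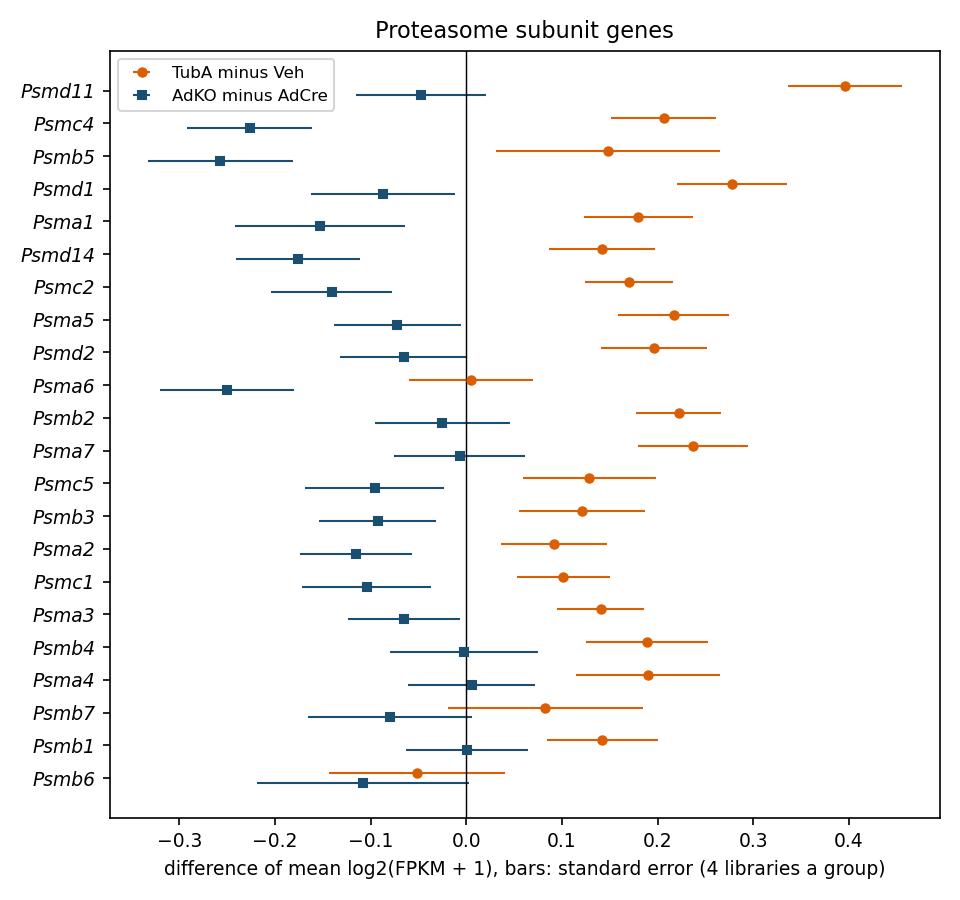
Drug effect (circles) and knockout effect (squares) of the 22 proteasome subunit genes, as the difference of mean log2(FPKM + 1) with its standard error, ordered by the difference of the effects. In 19 of 22 genes the circle lies right of 0 and the square left of it, and Psmb6, at the bottom, has both left of 0.

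The level of the proteasome list, the mean over its 22 genes of centred log2(FPKM + 1), ran from -0.13 to -0.01 in Veh and from 0.06 to 0.16 in TubA. It ran from 0.01 to 0.07 in AdCre and from -0.08 to -0.05 in AdKO. Of the 48 lists with at least 3 tested members, the proteasome list was the one without overlap in both arms in opposite directions, and no list was without overlap in both arms in the same direction. Control libraries of the cohorts differed as well, with all AdCre libraries above all Veh libraries. With 1 library left out, 17 to 21 genes kept the pattern of signs and 15 to 20 had an unadjusted p under 0.05 for the difference. The pattern of signs held for 17 genes with quantile normalization, 18 on TPM and 16 by voom.

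Genes of the aggresome route did not follow the proteasome as a group, while chaperone and tubulin genes leaned its way in part. Of 16 genes of aggresome and selective autophagy 10 were lower in both arms (30.7% of all tested genes were), with medians of -0.09 and -0.06. Sqstm1, the ubiquitin-binding autophagy receptor p62, was at -0.17 and -0.29, and Optn, another such receptor, at -0.34 and -0.48. Vcp, the ATPase that hands ubiquitinated proteins to the proteasome, had the proteasome's pattern, with 0.14 (SE 0.05) and -0.11 (SE 0.08). Its difference of 0.25 (SE 0.08) had a limma adjusted p of 0.392.

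Of 17 chaperone genes 7 were higher with TubA and lower in AdKO (18.4% of all tested genes were), with medians of 0.04 and -0.07. The difference of the effects had an unadjusted p under 0.05 in 3, with the drug effect the higher (4.46% of all genes did). Hsp90aa1, the inducible form of the HDAC6 substrate HSP90, was at 0.10 and -0.27. Hspb1, a small heat shock protein, was at 0.72 and 0.11. Of 12 tested of 13 listed tubulin genes, 4 were higher in both arms, 4 lower in both and 4 higher with TubA and lower in AdKO, the last count 2 without Veh replicate 2 or without TubA replicate 3. Their medians were 0.05 and -0.11, and 3 had an unadjusted p under 0.05 for the difference, again with the drug effect the higher. For chaperones and for tubulins that count ran from 1 to 4 with 1 library left out. The tubulin list level was higher in all TubA than in all Veh libraries and overlapped in the knockout arm. Tuba1a, an alpha-tubulin, was at -0.46 and -1.08, and Tubb3, a beta-tubulin, at 0.68 and 0.16. Of 13 deacetylase and tubulin acetylation genes, 3 were higher in both arms and 3 lower in both. Hdac10, the closest relative of Hdac6, was at -0.21 and 0.19, with a difference of -0.41 (SE 0.12) (limma adjusted p = 0.302).

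Immunoproteasome and antigen presentation genes stood the other way. Of 14 genes for MHC class I and the immunoproteasome, 12 were lower with TubA and higher in AdKO (23.9% of all tested genes were), with medians of -0.21 and 0.13. Psmb10, the inducible catalytic subunit that replaces a constitutive one in immune cells, stood at 39.4, 38.4, 46.6 and 36.5 FPKM in the Veh libraries, 31, 28.8, 34.4 and 30.5 with TubA, 40.9, 39.2, 37.4 and 35.4 in AdCre and 42.2, 38.1, 35.1 and 44.7 in AdKO. TubA lay below all Veh libraries, and AdKO overlapped AdCre. Its effects were -0.35 (SE 0.09) and 0.06 (SE 0.09), and their difference -0.42 (SE 0.13) (limma adjusted p = 0.343). H2-Q4 and H2-T23, nonclassical class I genes, had differences of -0.56 and -0.61. For MHC class II presentation, 9 of 10 genes had this pattern, with medians of -0.22 and 0.31 and 0 at an unadjusted p under 0.05 for the difference. The class II count was 5 without Veh replicate 3, and 4 genes had such a p without Veh replicate 2. On recovered reads by voom, 2 of the 10 could be tested and 1 had the pattern.

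Lymphocyte markers had the same pattern in full. All 11 tested of 15 listed T and NK cell markers were lower with TubA and higher in AdKO, with medians of -0.55 and 0.43, and 6 had an unadjusted p under 0.05 for the difference (4.57% of all genes did in this direction). Cd3g, a chain of the T cell receptor complex, stood at 2.96, 1.86, 4.32 and 2.56 FPKM in the Veh libraries, 2.67, 1.68, 0.917 and 1.38 with TubA, 0.582, 1.34, 1.17 and 0.486 in AdCre and 3.06, 1.05, 2.82 and 3.23 in AdKO. The groups overlapped in both arms, through TubA replicate 1 and AdKO replicate 2. The difference was -1.44 (SE 0.37) (limma adjusted p = 0.234). Cd3e, of the same complex, had a difference of -1.19, Nkg7, a protein of cytotoxic granules, -1.2 and Cd8a, the coreceptor of cytotoxic T cells, -0.89.

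All 11 B and plasma cell markers also had this pattern, with medians of -0.67 and 0.40. For Pax5, the B lineage transcription factor, the difference was -0.80 (SE 0.34), and for Cd79a, a signalling chain of the B cell receptor, -1.42 (SE 0.76). Of the 11, 1 gene (Pax5) had an unadjusted p under 0.05 for the difference, and 8 had one without AdKO replicate 2 or without AdCre replicates 2 and 3 together. Igkv8-19, an immunoglobulin kappa variable segment, was without overlap in both arms. It stood at 12.3, 14, 148 and 27.6 FPKM in the Veh libraries, 8.18, 6.02, 6.6 and 0.677 with TubA, 0.00, 0.754, 0.969 and 0.00 in AdCre and 1.13, 3.53, 11.7 and 3.45 in AdKO, and reads of related segments may have been shared. Its difference of -4.33 (SE 1.05) had a limma adjusted p of 0.212.

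The lymphocyte signal also differed between the control groups of the cohorts. The summed level of the 15 T and NK markers ran from 48.4 to 104 FPKM in Veh, 25.3 to 66.3 in TubA, 14.3 to 34.3 in AdCre and 24.5 to 65.2 in AdKO, and none was at 0 throughout. TubA overlapped both AdCre and AdKO in this sum. For the 11 B and plasma cell markers the sum ran from 5625 to 20138 FPKM in Veh and 4741 to 9860 in TubA. It ran from 513 to 2763 in AdCre and 457 to 4010 in AdKO, so all drug arm libraries lay above all knockout arm libraries. The Veh controls thus started above the AdCre controls for both sets of markers. The T and NK count was 8 of 11 without AdKO replicate 4, which had the highest level of its group. The part of lymph node or blood in these values was not tested.

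Among the other opposite-way genes, Pik3ip1, which inhibits phosphoinositide 3-kinase, had the smallest p without overlap. It stood at 7.48, 7.24, 7.23 and 7.43 FPKM in the Veh libraries, 6.05, 6.03, 5.66 and 6.28 with TubA, 4.07, 4.53, 4.93 and 4.34 in AdCre and 6.27, 5.37, 8.07 and 7.35 in AdKO. The Veh libraries lay close together and above all TubA libraries, and all AdKO libraries lay above all AdCre libraries. The effects were -0.25 (SE 0.05) and 0.50 (SE 0.12), and the difference -0.75 (SE 0.12) (limma adjusted p = 0.0882). N4bp2l1 had effects of -0.21 and 0.30, and Rhebl1, a small GTPase that activates mTORC1, -0.33 and 0.32. Cbx3, the heterochromatin protein HP1 gamma, was at -0.13 and 0.14, and Taz, in this table the gene of the cardiolipin-remodelling enzyme tafazzin, at -0.07 and 0.15. For both of these the nearest libraries of the groups nearly met.

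With TubA higher and AdKO lower, the genes without overlap were Psmc4, Psmc2, Psmd14 and Psmd12, 1 predicted gene and 4 others. Stx6, a syntaxin of the trans-Golgi network, had effects of 0.12 and -0.17. Cpd, a carboxypeptidase of that compartment, was at 0.24 and -0.24. Abhd3, a phospholipase, was at 0.35 and -0.18, and Mmadhc, which directs intracellular vitamin B12, at 0.20 and -0.17. The differences of these 4 ran from 0.30 to 0.53, with limma adjusted p-values of 0.172 to 0.212. The reverse group held 2 further predicted genes, counted and not named.

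Of 6 clock output factors 5 had a negative effect with TubA, and of 12 core loop genes 9 had. In AdKO the effects split evenly, 3 and 3 for the output factors and 6 and 6 for the loop. Lower with TubA and higher in AdKO were 3 of the 6 and 5 of the 12 (23.9% of all tested genes were). Dbp, a circadian transcription factor, stood at 23.9, 30.9, 28.4 and 30.3 FPKM in the Veh libraries, 20.7, 13.1, 16.1 and 16.5 with TubA, 22.9, 25.1, 20.8 and 21.1 in AdCre and 24.9, 34, 31.9 and 26.2 in AdKO. TubA lay below all Veh libraries. AdKO and AdCre overlapped through AdKO replicate 1 and AdCre replicate 2. The difference was -1.11 (SE 0.18) (limma adjusted p = 0.0882). Tef, of the same family, had effects of -0.43 and 0.12, and Nfil3, the repressor that competes with them, 1.25 and -0.11. Nr1d2, a repressor of the core loop, was at -0.39 and 0.19. The median over the output factors was -0.41 in the drug arm and 0.02 in the knockout arm, the latter -0.00396 without AdKO replicate 2 and -0.0075 without AdKO replicate 3. The labels give no hour of tissue collection, and its part was not tested.

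In all, 8 genes shared the smallest adjusted p for the difference (0.0882 by limma). Beside Pik3ip1, Dbp, Gata5 and Fbxo2 they were Dhcr7, Cys1, Cxcr6 and Cd163l1, named after their values were seen. Of these, Fbxo2 met the filter of 1 FPKM only through TubA. Dhcr7, the last enzyme of cholesterol synthesis, had effects of 0.09 and -0.70. Cxcr6, a chemokine receptor of tissue-resident lymphocytes, had effects of -0.47 and 1.86, Cd163l1, a scavenger receptor of gamma-delta T cells, -0.21 and 1.5, and Cys1, a cilium protein, -0.65 and 0.38.

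**Figure D4:**
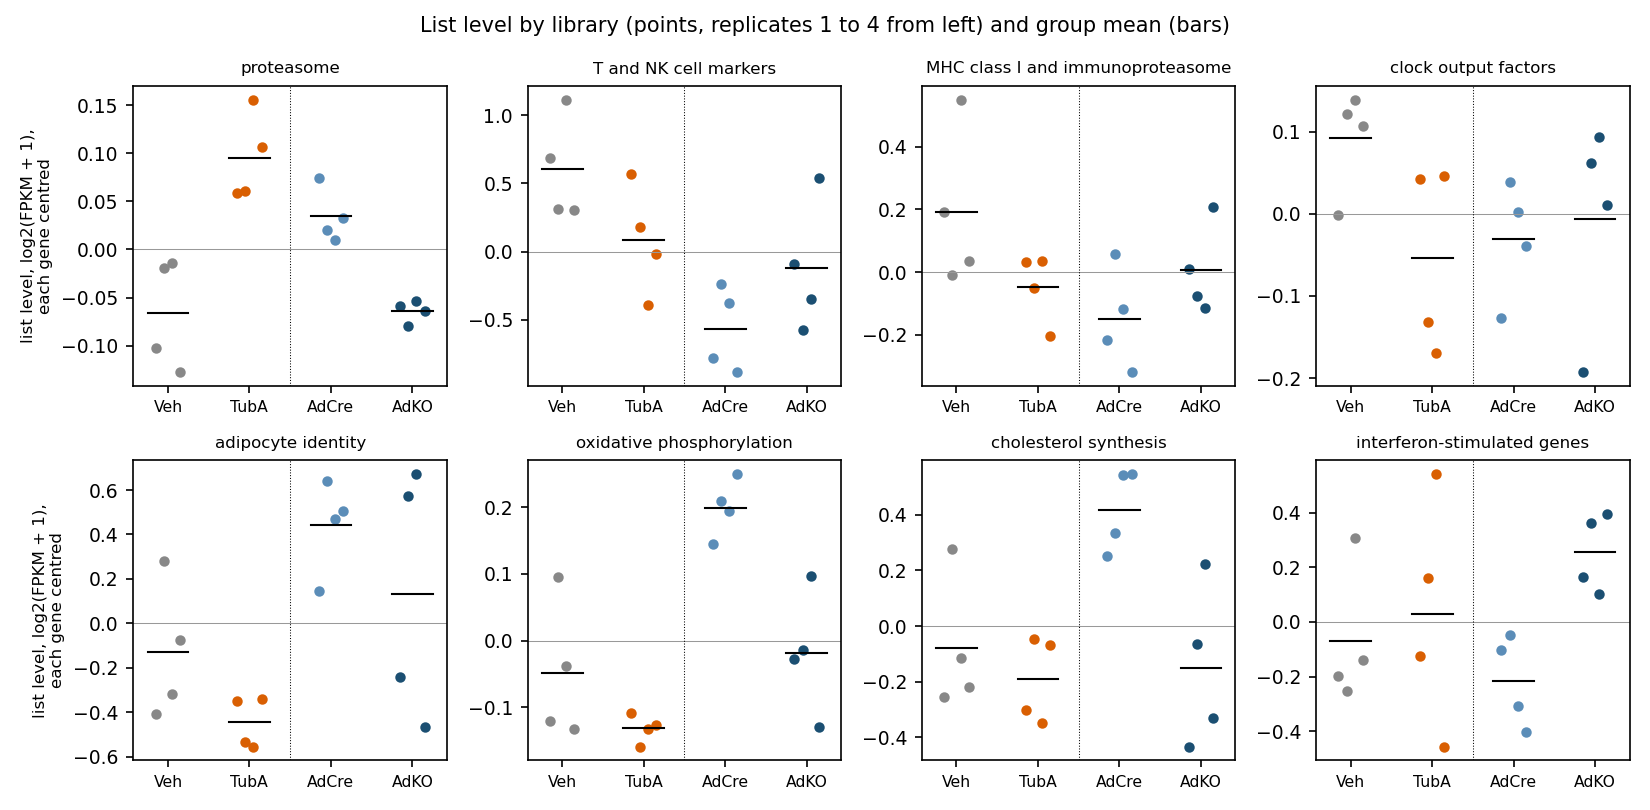
Level of 8 gene lists in each library (points), as the mean of log2(FPKM + 1) over tested members with each gene centred on its mean of 16 libraries, and the group mean (bars). The proteasome is the list whose groups are apart in both arms and in opposite directions, and Veh replicate 2 stands above its group for adipocyte identity and oxidative phosphorylation.

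Genes of fat cell metabolism were mostly lower in both arms. All 18 TCA cycle genes were lower in both (30.7% of all tested genes were), with medians of -0.11 and -0.22, and 10 had an unadjusted p under 0.05 for the average (9.39% of all genes did in this direction). Of 34 oxidative phosphorylation genes 30 were lower in both, with medians of -0.08 and -0.20, and 22 had such a p. In single arms, 1 oxidative phosphorylation gene was lower at an unadjusted p under 0.05 with TubA and 17 in AdKO. For the TCA cycle 1 and 6 were (6.1% and 6.16% of all genes). The oxidative phosphorylation level was without overlap in the knockout arm and overlapped in the drug arm. Ndufs8, a complex I subunit, was at -0.21 and -0.16, and Ndufb3, another, at -0.14 and -0.46. Suclg1, a subunit of succinyl-CoA ligase, was at -0.12 and -0.37. Fewer, 19 oxidative phosphorylation and 11 TCA genes, were lower in both on TPM, and 22 and 14 with quantile normalization, without a change of sign in either median. The oxidative phosphorylation genes with such a p for the average fell from 22 to 9 on TPM, 9 with quantile normalization and 8 by voom (32 tested). The TCA genes with one fell from 10 to 3, 4 and 4 (17 tested by voom). The TCA count ran, leaving out 1 library at a time, from 5, without Veh replicate 2 or without AdKO replicate 4, to 15, without AdKO replicate 3, and it was 3 without AdCre replicates 2 and 3 together.

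Of 17 fatty acid oxidation genes 14 were lower in both arms, of 19 for branched-chain amino acid breakdown 17, of 15 for lipogenesis 12 and of 12 for triglyceride assembly 10. Decr1, an auxiliary enzyme of fatty acid oxidation, was at -0.24 and -0.52. Dgat2, which makes triglyceride from diacylglycerol, was at -0.61 and -0.96, and Mogat2, which makes that diacylglycerol, at -0.91 and -0.94. Mlxipl, the glucose-sensing transcription factor ChREBP, was at -0.50 and -0.44. Cd36, the fatty acid transporter, was at -0.27 and -0.28, and Pparg, the master regulator of fat cells, at -0.25 and -0.35. Both belong to the adipocyte identity list, of which 15 of 16 genes were lower in both arms (medians -0.27 and -0.29).

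These counts moved with the fat cell markers of single libraries. All 5 fat cell markers were lower in both arms, and their summed level ran from 2566 to 4572 FPKM in Veh, 2461 to 2927 in TubA, 4568 to 5668 in AdCre and 2378 to 5170 in AdKO. Without Veh replicate 2, the highest of its arm, 10 TCA, 25 oxidative phosphorylation, 10 fatty acid oxidation, 11 branched-chain amino acid and 12 adipocyte identity genes were lower in both. Without AdKO replicate 1 these counts were 17, 30, 14, 17 and 13, in the same order. Without AdKO replicate 4 they were 16, 30, 15, 16 and 13. The knockout median of the identity list was -0.12 without AdKO replicate 4, in place of -0.29. The part of the number of fat cells in these results was not tested.

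Most thermogenic and cholesterol synthesis genes were lower in both arms, with the larger medians in the knockout arm. Of 9 tested thermogenic genes 7 were lower in both arms (30.7% of all tested genes were), with medians of -0.14 and -0.46. Otop1, a proton channel of brown and beige fat, was at -0.68 and -1.09, and Cox8b, a muscle and brown fat form of a cytochrome oxidase subunit, at -0.40 and -1.09. Of 19 cholesterol synthesis genes 15 were lower in both arms (30.7% of all tested genes were), with medians of -0.11 and -0.61. In the drug arm 0 were lower at an unadjusted p under 0.05 and in the knockout arm 16 (6.1% and 6.16% of all genes were). Their list level was without overlap in the knockout arm and overlapped in the drug arm. For the difference 5 had an unadjusted p under 0.05, with the knockout effect the lower (4.46% of all genes did). Mvd, an enzyme of the mevalonate pathway, was at -0.19 and -0.48. Without Veh replicate 2 the drug medians were 0.03 for thermogenic and 0.00 for cholesterol genes, against -0.14 and -0.11 with it. Without it 4 thermogenic and 9 cholesterol genes were lower in both, and 13 cholesterol genes had an unadjusted p under 0.05 for the difference, in either direction. That count ran from 3 to 13 with 1 library left out, and it was 10 on TPM and 2 without AdCre replicates 2 and 3 together.

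Inflammatory genes were mostly higher in both arms. Of 29 interferon-stimulated genes 21 were higher in both (27.0% of all tested genes were), with medians of 0.11 and 0.45, and 13 had an unadjusted p under 0.05 for the average (7.05% of all genes did in this direction). In single arms, 0 of the 29 were higher at an unadjusted p under 0.05 with TubA and 22 in AdKO (5.94% and 4.78% of all genes were). The list level was without overlap in the knockout arm and overlapped in the drug arm. Oasl2, an antiviral protein, was at 0.18 and 0.83, and Ifit1, another, at 0.63 and 0.80. The drug side depended on TubA replicate 3, without which its median was -0.04, 11 genes were higher in both and 8 had such a p for the average. That count was also 8 without AdCre replicate 4 and 22 without TubA replicate 4. Of 20 cytokine and Toll receptor genes 13 were higher in both, with medians of 0.16 and 0.29. They were 9 without TubA replicate 3 and 10 without Veh replicate 2. The knockout median was 0.13 without AdCre replicates 2 and 3 together. Levels of this list overlapped in both arms, and AdKO replicates 1 to 4 stood at 0.21, -0.42, -0.14 and 0.40. Il1b, which encodes interleukin 1 beta, was at 0.86 and 0.65, and the chemokine gene Ccl12 at 2.12 and 0.93. Nos2, the inducible nitric oxide synthase, was lower in both, at -0.47 and -0.37.

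Matrix remodelling genes were higher in both arms in 12 of 20 cases, with Spp1, the secreted protein osteopontin, at 2.59 and 1.39. Collagen chains split instead, with 8 of 16 higher with TubA and lower in AdKO (medians 0.37 and -0.18). Col6a3, the large chain of the collagen around fat cells, was at 0.28 and -0.54, and without AdKO replicate 1 the knockout median was 0.02 and the count 5. TubA libraries were not alike: replicate 1 had a collagen level of -0.57 and a matrix remodelling level of -0.41. The other TubA libraries were at 0.23 to 0.43 and 0.32 to 0.72. An unadjusted p under 0.05 for the difference was found for 2 collagens, and for 9 without TubA replicate 1. Of 12 macrophage markers 10 were higher in both arms (medians 0.15 and 0.34), with a drug median of -0.01 and a count of 6 without Veh replicate 2. An unadjusted p under 0.05 was found for 0 of the 12 in the drug arm, the knockout arm or the average. Of 10 lipid-associated macrophage markers, Spp1 among them, 9 were lower with TubA. Of these, 4 were lower and 5 higher in AdKO (medians of the 10 -0.31 and 0.01). Of 5 tested neutrophil markers 4 were higher in both arms, with medians of 0.62 and 1.0. S100a9, a calcium-binding protein of neutrophils, stood at 1.8, 1.25, 1.84 and 1.18 FPKM in the Veh libraries, 7.27, 9.52, 13.2 and 1.63 with TubA, 2.33, 7.3, 2.23 and 1.05 in AdCre and 22.1, 4.45, 80.1 and 52.7 in AdKO. TubA replicate 4 lay within the Veh range and the other TubA libraries above it, and AdKO replicate 2 lay below AdCre replicate 2 and the other AdKO libraries above all AdCre libraries. Of 26 cytosolic ribosomal protein genes 23 were higher in both arms, with medians of 0.12 and 0.09. Without AdKO replicate 4 they were 13, and the knockout median was -0.00103.

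Of 15 tested leptin and JAK-STAT signalling genes, 7 were higher in both arms, with medians of 0.02 and 0.09. The drug median was -0.0163 without Veh replicate 2 and -0.00737 without TubA replicate 2. Socs3, the feedback inhibitor of leptin and cytokine receptors, stood at 10.8, 7.75, 11.7 and 8.04 FPKM in the Veh libraries, 27.8, 28.2, 15.2 and 24.8 with TubA, 10.6, 11.4, 9.38 and 12.2 in AdCre and 12.7, 9.92, 10.7 and 15.8 in AdKO. All TubA libraries lay above all Veh libraries, and AdKO overlapped AdCre. Its effects were 1.22 (SE 0.21) and 0.14 (SE 0.14), and their average 0.68 (SE 0.13) had a limma adjusted p of 0.0656.

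**Figure D5:**
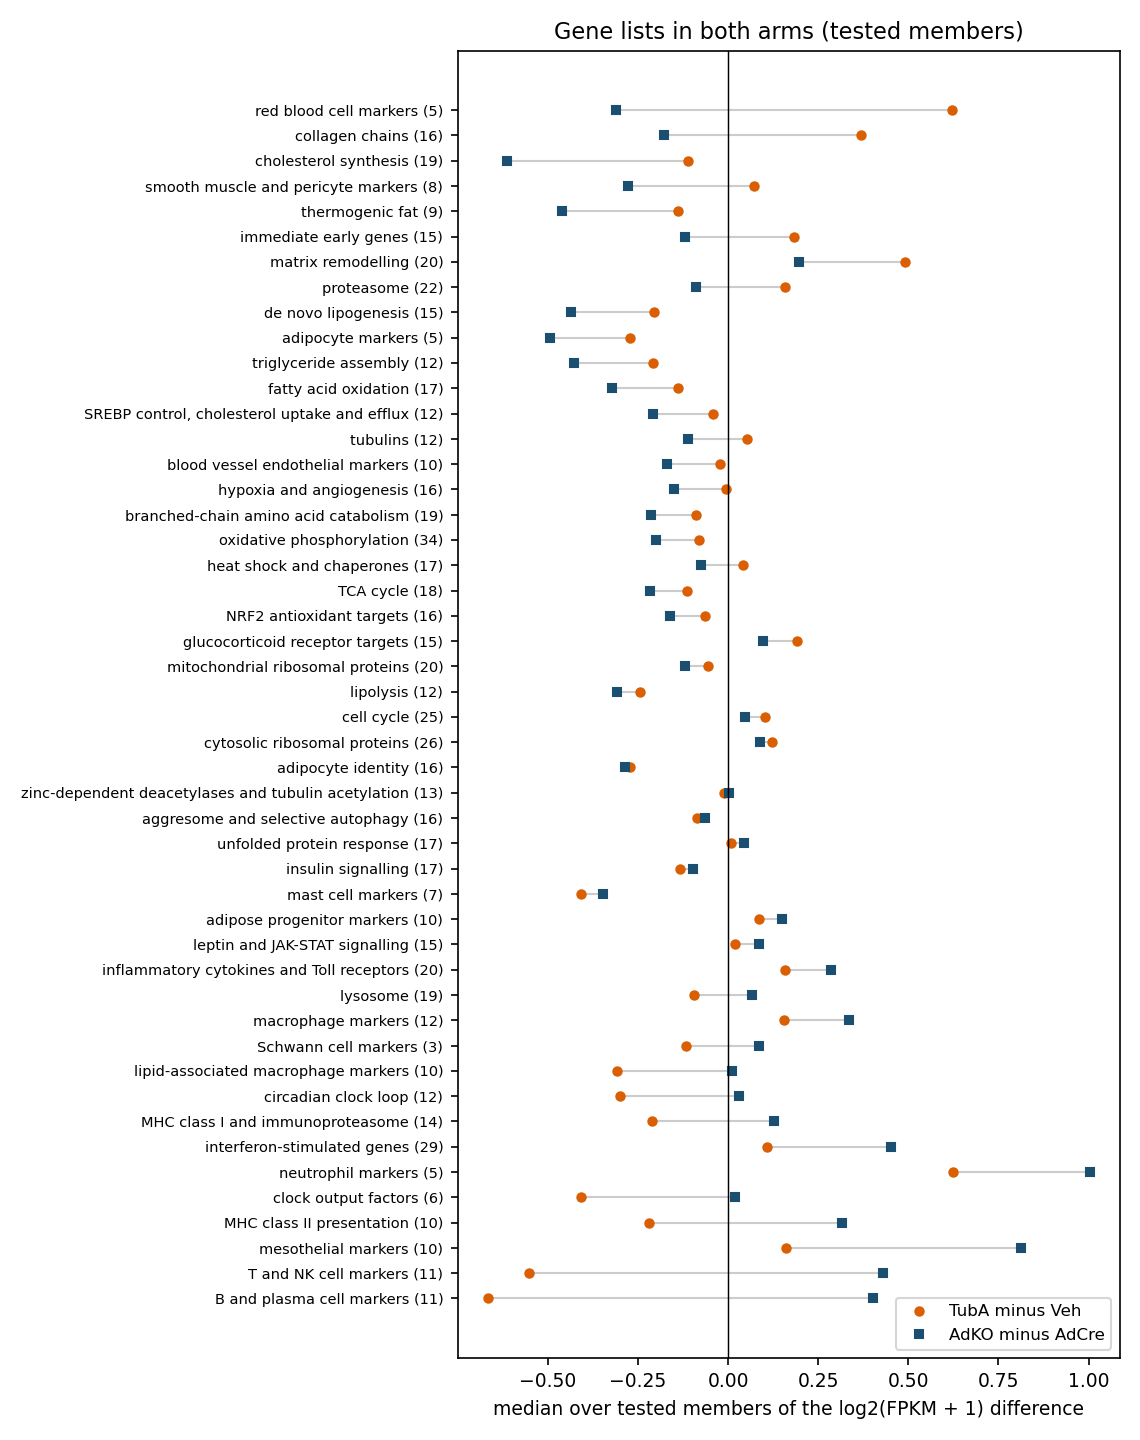
Median effect of each of 48 gene lists in the drug arm (circles) and the knockout arm (squares), over tested members (number in brackets), ordered by the difference of the medians. The medians had opposite signs in 17 of 48 lists, among them the proteasome, collagens and, at the bottom, the T and B cell markers.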

How the data were processed

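RNA of 16 libraries of epididymal fat was analysed, 4 in each of the groups Veh, TubA, AdCre and AdKO, assigned by sample title. The authors deposited 1 table of FPKM values, and 0 columns were without a sample. Total RNA was extracted with Trizol, DNase treated and cleaned on columns, per the labels' protocols. Which aligner, counter, build, kit and strand setting the authors used is not given in the sources here. Values of near-identical or overlapping genes (histones, immunoglobulin segments) are therefore uncertain. With exon lengths of GENCODE M21 (GRCm38, the annotation used here for coordinates), FPKM values of 95.1% of tested genes were whole reads in all libraries, within 0.01 read. The recovered depth was 18234386 to 24776803 reads per library.

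The filter kept genes at or above 1 FPKM in the mean of all columns. Their log2(FPKM + 1) values went into limma-trend (limma 3.58.1 in R 4.3.3), with p-values adjusted over all tested genes by Benjamini-Hochberg and a threshold of 0.05. This scale understates changes of low genes. Each arm was fitted on its own 8 libraries. The difference and the average of the effects were fitted on all 16 with 1 mean per group. Hdac6 was tested by exact permutation within arms. Lists are described by counts and medians beside those of all genes, with no test. Whether libraries came from separate animals is not stated in the labels. The p-values therefore measure the spread of these libraries, which may be technical. The members and lists were chosen with earlier results of these data known.

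Named genes are Hdac6, Lep, up to 12 per direction or pattern without overlap in either arm (smallest p of the average or the difference), up to 10 per direction among called genes, and up to 4 members per list described. Predicted genes and clone names were left out of the names. Aldh1a2, Fbxo2, Cys1, Cxcr6, Cd163l1, Psma4, Psmb1, Psmb5 and Psmb6 fall outside this rule and were chosen after their values were seen. Alternatives were pseudocounts of 0.1 and 0.5, other filters, median-of-ratios, TPM and quantile scaling, array weights, a robust prior, no trend, 1 shared spread, the replicate number as a block, voom on recovered reads, and libraries left out. The gene tests were tested on simulated data.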

Additional observations from a re-analysis of the deposited data

Results flagged for a closer look

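The level of the proteasome list was higher in every TubA library than in every Veh library and lower in every AdKO library than in every AdCre library. The drug effect on the level exceeded the knockout effect by 0.259 on the log2(FPKM + 1) scale, and this difference was not tested.

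A further 24 of 520 groups of 4 (4.62%) held a library far from the other 3, over 101 genes and 29 lists. Chance flags about 1 in 20 groups. In FPKM, the libraries high in their group were Aplp1 in Veh replicate 1 (3.13), Tmem35a in Veh replicate 2 (1.18), Cxadr in TubA replicate 2 (6.95), Psmb5 in TubA replicate 3 (91.3), Fbxo2 in Veh replicate 3 (0.673), Mlxipl in Veh replicate 2 (9.98) and Cox8b in AdKO replicate 3 (14.7). The libraries low in their group were Chmp2a in TubA replicate 2 (57.3), Cpd in Veh replicate 3 (13) and AdKO replicate 4 (14), Igkv8-19 in TubA replicate 4 (0.677), Cox7a2 in Veh replicate 1 (55.3), Psmb5 in AdKO replicate 2 (64.4), Cd3g in AdKO replicate 2 (1.05), Per3 in AdKO replicate 4 (6.31) and Ccl12 in AdKO replicate 2 (2.16).

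Among list levels, Veh replicate 2 stood high for the TCA cycle (0.229), lipogenesis (0.273) and thermogenic genes (0.276), TubA replicate 2 low for thermogenic genes (-0.454), TubA replicate 1 low for heat shock genes (-0.0466) and TubA replicate 3 high for macrophage markers (0.298). AdCre replicate 1 stood low for branched-chain amino acid breakdown (-0.0185) and AdKO replicate 4 high for leptin signalling (0.143).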

How the results depend on the processing

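The count of genes called on the average of the effects, 26, was 22 to 26 under both pseudocounts, median-of-ratios factors, a robust prior, no trend and 1 shared spread, 21 with quantile normalization (all 21 among the 26), 34 with array weights (23 among the 26) and 34 by voom (22 among the 26). It was 41 on TPM (23 among the 26), 7 at a mean FPKM of at least 5 (all 7), and 0 without AdCre replicates 2 and 3 together. With no filter on low values 1 gene was called and with the replicate block 1 gene, and 0 of the 26 were kept in either fit. With 1 library left out the count was 0 to 76, and it was 0 without Veh replicate 2 or 4, TubA replicate 2 or 4, AdCre replicate 1 or 3, or AdKO replicate 4. Rdh10 stayed called in 8 of these 16 fits and no gene in more. The difference of the effects called 5 genes on TPM, 10 with quantile normalization, 6 with array weights, 1 with no filter, and 0 to 5 with 1 library left out.

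The drug arm called 8 genes and the knockout arm 43 when 1 spread was shared by 16 libraries. The drug arm called 1 on TPM and by voom and 3 with no filter, and the knockout arm 2 with no filter. With 1 library left out they called 0 to 2 and 0 to 1. Same-way genes numbered 98 at a mean FPKM of at least 5, 76 without AdCre replicates 2 and 3 together and 89 to 221 with 1 library left out. Opposite-way genes numbered 80 with no filter, 28 at a mean FPKM of at least 5 and 29 to 79 with 1 left out. Without overlap there were 66 same-way genes on TPM, 22 at a mean FPKM of at least 5, and 103 same-way and 64 opposite-way without AdCre replicates 2 and 3. With 1 library left out, which alone makes overlap less likely, they were 44 to 94 and 20 to 40. The lists with opposite medians numbered 13 to 24. The difference for Hdac6 was 0.13 to 0.29, and Hdac6 was not tested at a mean FPKM of at least 5.

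The medians of 29 lists were recomputed under each alternative, and among those over 0.1 in size the ones that changed sign were of thermogenic genes (drug arm, 0.00226 with array weights and 0.0304 without Veh replicate 2), cholesterol genes (drug arm, 0.000254 without Veh replicate 2), macrophages (drug arm, -0.00887 without Veh replicate 2), interferon genes (drug arm, -0.0378 without TubA replicate 3) and collagens (knockout arm, 0.0216 without AdKO replicate 1). With 1 library left out these medians reached -0.266, -0.184, 0.199, 0.256 and -0.356 at the other end. Smaller medians changed sign as well, in the knockout arm for lysosome genes (0.0674, and -0.129 to -0.0304 with array weights or without AdKO replicate 1, AdCre replicate 3 or AdCre replicates 2 and 3), core clock genes (0.0301, and -0.0332 with no filter) and clock output factors (0.0191, and -0.054 at a mean FPKM of at least 5). Those of clock output factors and ribosomal proteins (knockout arm) and leptin signalling (drug arm) did so with 1 library left out, as given with each list. The causes were not tested.

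Same-numbered libraries did not pair: the correlation of their deviations was -0.10 to 0.02 in the drug arm and -0.23 to 0.33 in the knockout arm, and 2 of 8 libraries correlated best with their own number. With the replicate block, 1 gene was called on the average, 0 on the difference, and 153 same-way and 54 opposite-way genes were found. The median standard error of 0.15 for the difference of effects limits what 4 libraries a group can show.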

Other observations

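Some gene groups outside the comparisons above also had medians of opposite sign or of equal sign. Of 5 tested of 7 listed red blood cell markers 4 were higher with TubA and lower in AdKO (18.4% of all tested genes were), with medians of 0.62 and -0.31. The summed level of the 7 ran from 160 to 1055 FPKM in Veh, 244 to 1209 in TubA, 197 to 678 in AdCre and 167 to 1388 in AdKO. Of 15 immediate early genes 6 were higher with TubA and lower in AdKO, with medians of 0.18 and -0.12. Of 7 mast cell markers 6 were lower in both arms, with medians of -0.41 and -0.35. Their summed level ran from 358 to 776 FPKM in Veh and 245 to 470 in TubA, and from 133 to 253 in AdCre and 62.4 to 249 in AdKO.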
